A study of Mus musculus with 26 samples.

Results

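The genes described here are 10 that carry dietary fat through the absorptive cell of the small intestine: the apolipoproteins Apoa1, Apoa4, Apob, Apoc2 and Apoc3, and Mttp, Fabp1, Fabp2, Dgat1 and Cd36. They were taken by gene name from 3 count tables, in upper case in the human one, and are 10 of 40481 mouse genes and 10 of 55093 human genes. RNA was sequenced after loss of Fgfr1op, which encodes a protein of the centrosome and of the base of cilia. Small-intestinal spheroids, hollow epithelial cultures grown in Matrigel in 50% L-WRN medium (a source of Wnt3a, R-spondin 3 and Noggin), were Fgfr1op KO or wild type (WT), with 4 libraries from 4 mice each. They had 250 nM hydroxytamoxifen in culture and were labelled day 3 after it. Crypt-enriched cells of the small intestine came from Fgfr1op KO and WT mice given tamoxifen, 3 mice per genotype at day 6 and 3 at day 9. Cells of the human colorectal cancer line Caco-2, a common stand-in for absorptive epithelium, carried an inducible lentiviral hairpin, shFgfr1op or scramble (the non-targeting control), with 3 libraries each at day 3 after doxycycline. The labels do not give the promoter that drives the recombinase, the exons removed or the mice's ages. In the crypt table the columns are named by genotype and number without the day, so all 6 KO libraries were set against all 6 WT libraries and the days cannot be separated here.

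In an enterocyte, fatty acids enter partly by way of the membrane protein CD36 and are bound in the cytosol by the fatty acid binding proteins FABP1 and FABP2. DGAT1 adds the last acyl chain of triglyceride, and the microsomal triglyceride transfer protein MTTP loads that lipid onto APOB in the endoplasmic reticulum to form a chylomicron. APOA1, APOA4, APOC2 and APOC3 sit on the particle's surface, where APOC2 activates lipoprotein lipase in the circulation and APOC3 inhibits it. These genes are known as products of villus enterocytes rather than of crypt base cells, and several are also made by the liver.

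In the mouse (mm10, GENCODE M21 gene models), 3 of the genes lie within 14880 bases of chromosome 9: Apoa1 at 46228580 to 46230466, Apoc3 at 46232933 to 46235636 on the opposite strand, and Apoa4 at 46240696 to 46243459. Apob lies on chromosome 12 (7977648 to 8016835), Apoc2 on chromosome 7 (19671579 to 19677941), Mttp and Fabp2 on chromosome 3 (138089854 to 138144968 and 122895072 to 122899506), Fabp1 on chromosome 6 (71199827 to 71205023), Dgat1 on chromosome 15 (76502015 to 76511953) and Cd36 on chromosome 5 (17781690 to 17888801). Counts were deposited per gene. Apoa4, Apoc2, Mttp and Fabp2 overlap other annotated genes (for example Trmt10a at Mttp and the antisense 4933405D12Rik at Fabp2), and the strand setting of the counts was not given in the sources used here. No human build is given, so human positions are not printed.

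RefSeq promoter windows of the same assembly (GRCm38.p6) were at hand for 8 of the 10 mouse genes, all but Apoc3 and Dgat1. The 250 bases before each start were searched on both strands for CAAAGNNCA (a form of the HNF4 site), GTTAAT (the core of an HNF1 site), TTTATG (a CDX form) and TATAAA (the TATA box), with matches of different motifs free to overlap. CAAAGNNCA was in Apoa4, Apob and Fabp2, 3 of the 8, and in 5.49% of all 32851 windows of that length. GTTAAT was in Apoc2 and Fabp1 and in 6.43% of all windows, TTTATG in Fabp1 and Cd36 and in 10.8%, and TATAAA in Apob and Fabp1 and in 12.4%. Apoa1 and Mttp held none of the 4 in these windows. The Mttp window (chr3:138143419-138143668, minus strand) lies inside the gene's annotated span and wholly within annotated exons. The stretches outside annotated exons are shown for Apob, whose levels followed the other genes least in spheroids, and for Cd36, the gene that passed the test in crypts. They are also shown for Fabp1 and Fabp2, which, like most of the 10, varied together across the crypt libraries. Capitals mark motif matches, and the TATAAA of Fabp1 lies beyond its printed stretch, inside the GENCODE gene model. Positions are chr12:7977427-7977647, plus strand, for Apob; chr6:71199629-71199826, plus strand, for Fabp1; chr3:122894822-122895071, plus strand, for Fabp2; and chr5:17835897-17836146, minus strand, for Cd36, where the stretch lies inside the gene's annotated span but outside its exons. A match is a string of letters, not a known site.
Apob: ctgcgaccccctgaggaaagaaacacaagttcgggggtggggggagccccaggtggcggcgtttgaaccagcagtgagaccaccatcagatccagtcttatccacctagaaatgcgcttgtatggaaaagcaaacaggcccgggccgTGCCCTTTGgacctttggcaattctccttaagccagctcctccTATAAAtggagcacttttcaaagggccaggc
Fabp1: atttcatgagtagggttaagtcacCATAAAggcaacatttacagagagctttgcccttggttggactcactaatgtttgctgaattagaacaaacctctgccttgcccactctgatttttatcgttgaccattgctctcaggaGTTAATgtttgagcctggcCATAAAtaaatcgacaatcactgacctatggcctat
Fabp2: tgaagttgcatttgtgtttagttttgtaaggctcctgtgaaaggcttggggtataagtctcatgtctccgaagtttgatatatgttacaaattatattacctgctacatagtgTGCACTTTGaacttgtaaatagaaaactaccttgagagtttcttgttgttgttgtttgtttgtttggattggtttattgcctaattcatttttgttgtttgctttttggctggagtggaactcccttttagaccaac
Cd36: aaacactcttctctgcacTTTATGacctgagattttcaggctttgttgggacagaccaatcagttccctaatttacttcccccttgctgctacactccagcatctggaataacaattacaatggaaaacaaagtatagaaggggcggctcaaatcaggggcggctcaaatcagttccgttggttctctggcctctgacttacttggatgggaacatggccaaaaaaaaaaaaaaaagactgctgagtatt

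Total counts per library were 51459939 to 63981065 in KO spheroids and 44152608 to 67630241 in WT spheroids, 48068740 to 88869286 in KO crypts and 49536700 to 103352863 in WT crypts, and 37281821 to 43876634 in shFgfr1op cells and 37989227 to 50965004 in scramble cells. Levels are given as CPM, a gene's counts relative to the library's total after scaling by TMM factors, and a gene was called where the adjusted p of edgeR's quasi-likelihood test over all genes tested was below 0.05. Fgfr1op itself had 15.0 to 19.8 CPM in KO spheroids and 21.7 to 24.4 CPM in WT spheroids, which do not overlap, although its adjusted p in edgeR was 0.117. In crypts its level was 11.7 to 25.9 CPM for KO libraries and 25.2 to 39.0 CPM for WT libraries, so 1 KO library lies above the lowest WT library, and it fell with an adjusted p of 0.0261 in edgeR. FGFR1OP had 6.43 to 7.26 CPM in shFgfr1op cells and 15.5 to 15.9 CPM in scramble cells, a log2 fold change of -1.20 ± 0.09 (SE). Spheroids expressed 6 general epithelial markers at a sum of 14521 to 17235 CPM in KO and 12384 to 14071 CPM in WT libraries, and 5 endothelial markers at no more than 0.174 CPM in KO and 0.329 CPM in WT libraries. WT spheroid library 1 held the highest value in several of the 10 genes, and KO crypt libraries 4, 5 and 6 held the lowest KO values in several. A preset outlier check within each mouse group flagged no library in the tested genes. It looked only for 1 extreme library in a group, so it could not flag several low libraries together. The share of all counts held by the 10 genes was 0.0293% to 0.0656% in KO spheroids and 0.0274% to 0.0522% in WT spheroids, 0.262% to 2.79% in KO crypts and 1.09% to 2.61% in WT crypts, and 0.226% to 0.260% in shFgfr1op cells and 0.346% to 0.380% in scramble cells.

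In Caco-2 cells, 6 of the 7 genes that had enough counts to be tested fell in shFgfr1op cells: APOA1, APOA4, APOC3, MTTP, FABP1 and DGAT1. Their levels were 30.3% to 52.2% below those of scramble cells by the group means. Of all 18905 genes tested in this table, 31.9% were called and 16.2% were called lower. The groups did not overlap in the same 6 of the 7 genes, against 42.4% of all genes tested. The 7 genes' median log2 fold change was -0.86, beside -0.0051 over all genes tested. No label says that the Caco-2 libraries came from separate cultures, so p-values here measure only the spread between these libraries, which may be technical. As in any bulk sample, fewer cells of a kind and less RNA per cell cannot be told apart, here or in the mouse libraries.

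Among the surface apolipoproteins, APOA1 (ENSG00000118137), the main protein of high-density lipoprotein and a component of new chylomicrons, had 1001, 942 and 1078 CPM in shFgfr1op cells, against 1845, 1807 and 1818 CPM in scramble cells. All 3 shFgfr1op libraries lay below all 3 scramble libraries, and the log2 fold change was -0.86 ± 0.03 (SE; edgeR adjusted p = 2.56e-16). APOA4, made by enterocytes during fat absorption, had 30.8, 23.4 and 29.1 CPM in shFgfr1op cells, against 51.4, 58.8 and 53.1 CPM in scramble cells. Those libraries do not overlap either, with a log2 fold change of -0.97 ± 0.08 (SE; edgeR adjusted p = 4.54e-07). APOC3, the inhibitor of lipoprotein lipase, had 135, 119.8 and 141 CPM in shFgfr1op cells, against 242, 245 and 237 CPM in scramble cells, again with a clear gap. Its log2 fold change was -0.87 ± 0.04 (SE; edgeR adjusted p = 1.2e-14), so the 3 apolipoproteins that neighbour each other on mouse chromosome 9 had log2 fold changes between -0.97 and -0.86 in the human line.

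For particle assembly, MTTP, the lipid loader, had 3.44, 2.98 and 3.23 CPM in shFgfr1op cells, against 6.67, 7.52 and 6.01 CPM in scramble cells. The groups are apart although the gene was low, at 113 to 143 counts in shFgfr1op libraries and 249 to 377 counts in scramble libraries. The log2 fold change of -1.07 ± 0.14 (SE; edgeR adjusted p = 3.33e-08) was the most negative of the 7. APOB, the structural protein of the particle, had 1062, 974 and 1135 CPM in shFgfr1op cells, against 1109.5, 1295 and 1471 CPM in scramble cells. Here the groups overlap, since shFgfr1op library 3 lies above scramble library 1, and the scramble libraries spread more than the shFgfr1op ones. The log2 fold change of APOB was -0.29 ± 0.13 (SE; 95% interval -0.64 to 0.06; edgeR adjusted p = 0.193). Without scramble library 1 it was -0.39 and without scramble library 3 it was -0.19, with adjusted p of 0.0189 and 0.348 in edgeR.

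The cytosolic carrier FABP1 had 55.4, 46.8 and 57.9 CPM in shFgfr1op cells, against 78.1, 73.1 and 78.6 CPM in scramble cells. The groups do not overlap, and the log2 fold change was -0.52 ± 0.06 (SE; edgeR adjusted p = 2.79e-07). DGAT1, the triglyceride-forming enzyme, had 119.7, 119.0 and 133 CPM in shFgfr1op cells, against 194, 190.1 and 181 CPM in scramble cells. Every shFgfr1op library was lower, with a log2 fold change of -0.60 ± 0.04 (SE; edgeR adjusted p = 1e-15). The other 3 genes were hardly detected in this line and were not tested. APOC2 had 0 to 5 counts in shFgfr1op libraries and 0 to 4 in scramble libraries, FABP2 had 0 to 2 and 0 to 6, and CD36 had 2 to 8 and 6 to 12.

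**Figure D1:**
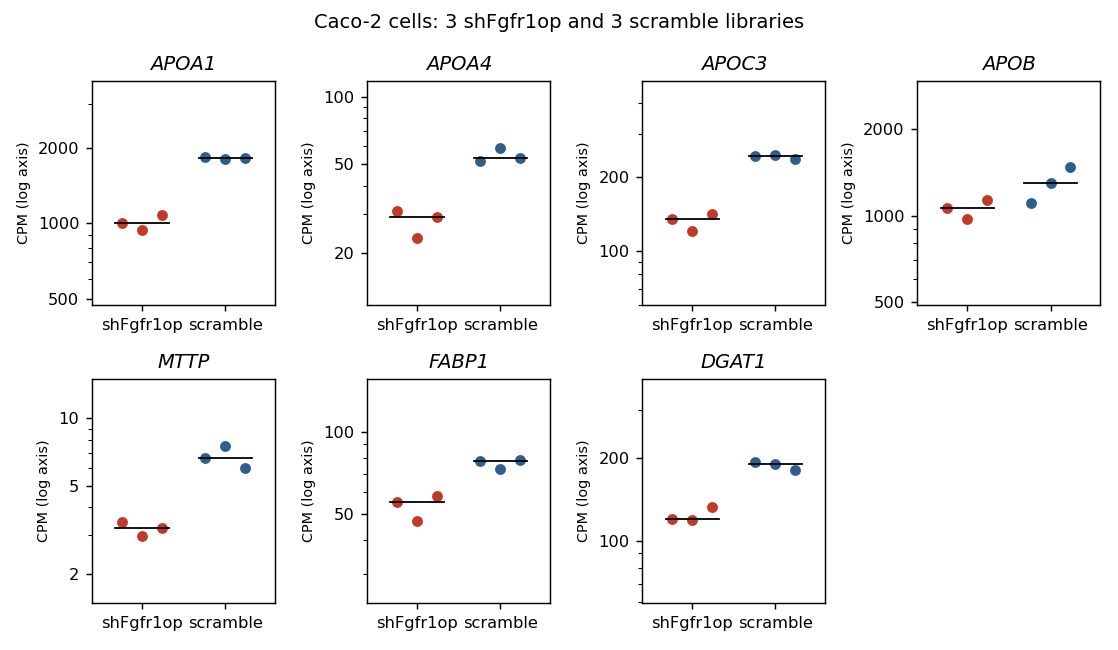
Levels of the 7 tested genes in Caco-2 cells, in CPM on a log axis, with 1 point per library and a line at each group's median. In 6 of the panels the 3 shFgfr1op libraries lie below the 3 scramble libraries, and in APOB the groups overlap (974 to 1135 CPM in shFgfr1op cells, 1109.5 to 1471 CPM in scramble cells).

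Other genes of fat handling moved in both directions in Caco-2 cells. Of 88 such genes in 6 lists, 78 were tested, 42 fell and 10 rose, with a median log2 fold change of -0.15. Over all genes tested, 16.2% were called lower and 15.7% higher, so rises were no more frequent in these lists than over all genes. Fatty acid handling held the steepest rise among them: CPT1A, which moves fatty acids into mitochondria for oxidation, had 89.3 ± 0.528 CPM in shFgfr1op cells and 42.3 ± 1.77 CPM in scramble cells (SD, n = 3 each), a log2 fold change of 1.08 ± 0.05 (SE; edgeR adjusted p = 8.01e-24). ACSL1, an acyl-CoA synthetase, rose by 0.39 on the log2 scale (edgeR adjusted p = 2.4e-08). In that list 3 of 10 tested genes rose and 5 fell.

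In the list of triglyceride synthesis and storage, 8 of 14 tested genes fell and 2 rose, beside 16.2% and 15.7% of all genes tested. SOAT2, which esterifies cholesterol, had 16.0 ± 2.01 CPM in shFgfr1op cells and 36.6 ± 1.35 CPM in scramble cells (SD, n = 3 each; log2 fold change -1.19 ± 0.07, SE; edgeR adjusted p = 7.17e-18). PNPLA2, a triglyceride lipase, rose by 0.56 on the log2 scale (edgeR adjusted p = 1.28e-13). Of the other apolipoproteins and their partners, 7 of 9 tested genes fell and none rose, but APOE, at 1731 ± 24.8 CPM in shFgfr1op cells and 1923 ± 41.1 CPM in scramble cells (SD, n = 3 each), changed by only -0.15 (log2; edgeR adjusted p = 1.22e-05). For uptake and efflux, 5 of 10 fell and 1 rose, and SCARB1, a receptor for lipoproteins, fell by 0.53 (edgeR adjusted p = 8.45e-18). For chylomicron assembly and transport, 4 of 13 fell and 2 rose, with a list median of -0.09, near that of all genes. Of 22 tested regulators, 13 fell and 2 rose. PRDM1, a repressor that marks immature gut epithelium in the mouse, had 6.16 ± 0.768 CPM in shFgfr1op cells and 14.6 ± 0.490 CPM in scramble cells (SD, n = 3 each), a log2 fold change of -1.24 ± 0.10 (SE; edgeR adjusted p = 5.84e-14).

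Markers of other cell states also moved with the hairpin, in a comparison that called 16.2% of all genes tested lower and 15.7% higher. Of 7 hepatocyte markers, which Caco-2 cells also make, 7 fell, and their summed level was 687 to 763 CPM in shFgfr1op libraries and 1511 to 1573 CPM in scramble libraries. Of 10 tested enterocyte markers 5 fell and 1 rose, with sums of 486 to 511 CPM in shFgfr1op libraries and 516 to 528 CPM in scramble libraries, and KRT20 and TREH stayed under 1 CPM. All 4 tested stem cell markers rose, with sums of 129 to 135 CPM in shFgfr1op libraries and 71.3 to 73.9 CPM in scramble libraries, and OLFM4 stayed under 1 CPM. Their part in the lower levels of the fat absorption genes was not tested.

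In crypts, Cd36 was the 1 gene of the 10 that passed the test, and it fell. All 10 had enough counts to be tested, and of all 16413 genes tested 24.5% were called and 10.5% were called lower. Their median log2 fold change was -0.55, beside 0.05 over all genes tested, with 9 of 10 below 0. DESeq2 called 3 of the 10 (25.8% of all genes), adding Fabp1 and Dgat1, and limma voom with sample quality weights called 8 (43.7% of all genes), all but Apoa4 and Apoc2, with log2 fold changes of -1.69 for Apoa1, -3.30 for Apoc3 and -2.40 for Fabp1 among them. The ratio of the highest to the lowest library was larger among KO than among WT libraries in every gene but Apoc2.

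Cd36 (ENSMUSG00000002944), the fatty acid receptor, had 0.429 CPM in the lowest KO library, a median of 4.16 and 7.11 in the highest, against 15.2, 36.1 and 69.4 CPM in WT libraries. Every KO library lay below every WT library, which 10.6% of all genes tested showed in one direction or the other. The log2 fold change was -3.19 ± 0.60 (SE; 95% interval -4.50 to -1.88; edgeR adjusted p = 0.00476), a level 9.16-fold lower in KO crypts. It passed in each of 12 fits that left out 1 library, with log2 fold changes of -3.47 to -2.95. CD36 is also a protein of endothelium, fat cells and macrophages. Of 5 endothelial markers, Cdh5, Kdr, Cldn5 and Gpihbp1 stayed under 1 CPM in every library, and the sum was 0.274 to 2.49 CPM in KO and 0.748 to 1.91 CPM in WT libraries. Of 5 adipocyte markers, Adipoq, Lep, Cfd and Fabp4 stayed under 1 CPM, with sums of 0 to 0.592 CPM in KO and 0.0262 to 2.83 CPM in WT libraries. Of 7 immune markers 1, Cd68, rose, beside 14% of all genes tested that were called higher. The immune sum was 106 to 281 CPM in KO and 206 to 460.0 CPM in WT libraries. The part of macrophages and other immune cells in the Cd36 level was not tested.

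The transfer protein and the triglyceride-forming enzyme had lower averages in KO crypts without passing the test. Mttp had 492 CPM in the lowest KO library, a median of 1060.3 and 1694 in the highest, against 928, 1793 and 2503 CPM in WT libraries. WT libraries 2 and 4 lay within the KO range and the other WT libraries above it, and the log2 fold change was -0.68 ± 0.27 (SE; 95% interval -1.25 to -0.10; edgeR adjusted p = 0.0801). Dgat1 ran from 80.9 through a median of 194 to 252 CPM in KO libraries, against 198, 302 and 309.9 CPM in WT libraries. Again WT libraries 2 and 4 lay within the KO range, and the log2 fold change was -0.63 ± 0.24 (SE; 95% interval -1.15 to -0.11; edgeR adjusted p = 0.0727). Both stand near the threshold, and some of the fits that left out 1 library called them: Mttp without KO library 3 (adjusted p = 0.0256 in edgeR) or WT library 4 (0.0393), and Dgat1 without KO library 1 (0.0365) or 3 (0.0457).

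In Fabp1, Fabp2, Apoa1 and Apoc3, KO libraries 4, 5 and 6 lay below every WT library. Fabp1 had 1748, 893, 1917, 316, 88.7 and 398 CPM in KO libraries 1 to 6, against a lowest of 1139.9, a median of 2086 and a highest of 3618 CPM in WT libraries. KO library 2 also lay below every WT library, while libraries 1 and 3 lay within the WT range. The log2 fold change of Fabp1 was -1.29 ± 0.62 (SE; 95% interval -2.64 to 0.06; edgeR adjusted p = 0.146). Fabp2, the intestinal fatty acid binding protein, had 10848, 4229, 7374, 2169, 700.0 and 1132 CPM in KO libraries 1 to 6, against 3602, 4578 and 12164 CPM as lowest, median and highest in WT libraries, and KO libraries 1, 2 and 3 lay within the WT range. Its log2 fold change was -0.45 ± 0.60 (SE; edgeR adjusted p = 0.613), and it was -0.95 without KO library 1, -0.23 without KO library 5 and -0.15 without WT library 1.

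Apoa1 had 11335, 4506, 9007, 1606, 801 and 1510.4 CPM in KO libraries 1 to 6, against 4049, 6221 and 9713 CPM as lowest, median and highest in WT libraries. KO library 1 was above all WT libraries, and the log2 fold change was -0.47 ± 0.57 (SE; edgeR adjusted p = 0.579). Leaving out single libraries moved it to between -0.93 (without KO library 1) and -0.25 (without KO library 5). Apoc3 had 275, 80.5, 227, 15.3, 4.64 and 15.8 CPM in KO libraries 1 to 6, against 139, 209 and 492 CPM as lowest, median and highest in WT libraries. KO library 2 was below all WT libraries too. Its KO libraries thus spanned more than an order of magnitude, and the log2 fold change of -1.26 ± 0.84 (SE; edgeR adjusted p = 0.291) did not pass. Apoa4 ran from 107 through a median of 363 to 904 CPM in KO libraries, against 355, 562 and 711 CPM in WT libraries (log2 fold change -0.24 ± 0.40, SE; edgeR adjusted p = 0.692). Without KO library 3 that value was -0.57, and without KO library 5 it was -0.032.

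Apob ran from 84.2 through 179 to 472 CPM in KO crypts, against 169.9, 273 and 378 CPM in WT crypts, with overlap and a log2 fold change of -0.34 ± 0.33 (SE; edgeR adjusted p = 0.481). Without KO library 1 it was -0.72 (edgeR adjusted p = 0.0407), and without KO library 5 it was -0.17. Apoc2, the lipase activator, averaged 240.0 ± 88.8 CPM in KO crypts and 239.7 ± 123 CPM in WT crypts (SD, n = 6 each), a log2 fold change of 0.00 with a 95% interval of -0.72 to 0.73. In 7 of the 10 genes the 3 lowest KO values were those of libraries 4, 5 and 6, the exceptions being Apoa4, Apoc2 and Cd36. How many of all genes tested have the same 3 lowest libraries was not counted, so this cannot be read as particular to the 10. The mice behind these columns cannot be assigned to day 6 or day 9, so these libraries were neither averaged nor tested apart.

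**Figure D2:**
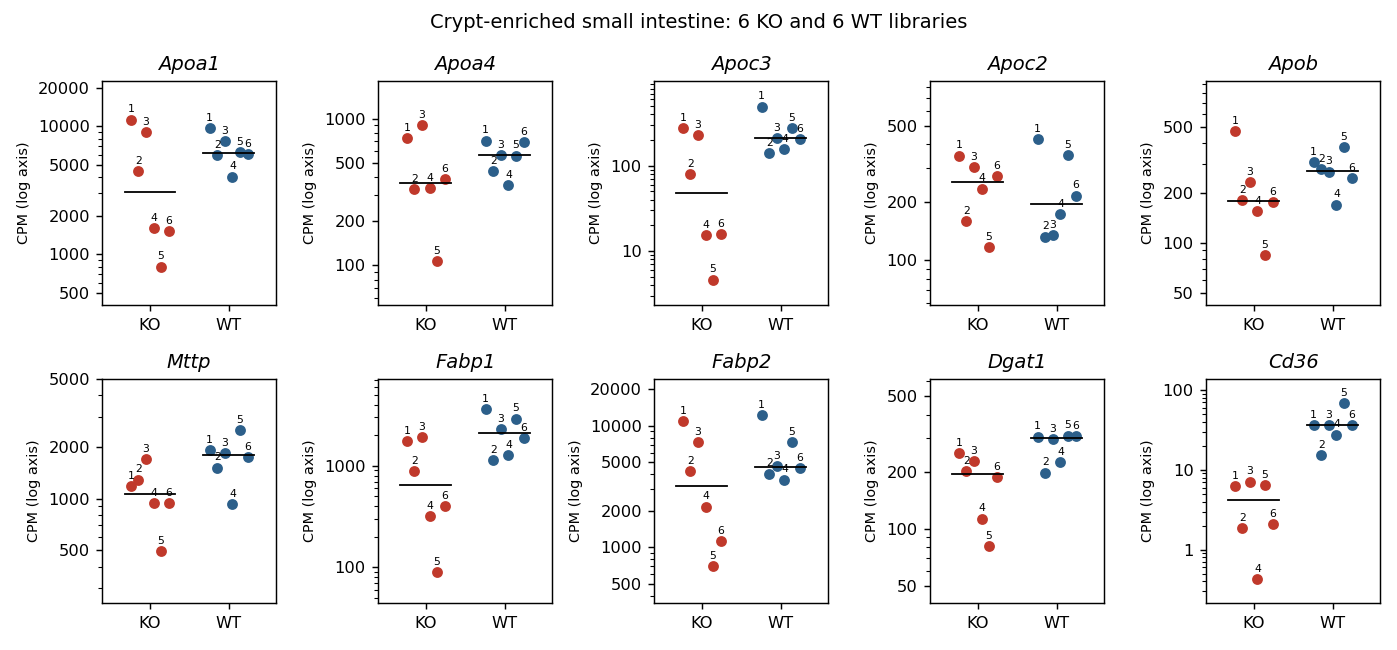
Levels of the 10 genes in crypt-enriched small intestine, in CPM on a log axis, with 1 point per library, the library's running number above it and a line at each group's median. KO libraries 4, 5 and 6 are the lowest 3 of the KO group in 7 panels, and the share of all genes with that pattern was not counted. In Cd36 all 6 KO libraries (0.429 to 7.11 CPM) lie under all 6 WT libraries (15.2 to 69.4 CPM).

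Cell type markers differed between the genotypes in several lists, in a comparison that called 10.5% of all genes tested lower and 14% higher. The 12 enterocyte markers all had log2 fold changes below 0, of which 2, Sis and Slc5a1, fell, and their sum was 3724 to 15269 CPM in KO crypts and 9560 to 23937 CPM in WT crypts. None of 5 stem cell markers passed the test, with sums of 23.3 to 972 CPM in KO and 864 to 2076 CPM in WT libraries, and none of 5 Paneth cell markers did, with sums of 6956 to 47285 CPM in KO and 31390 to 77581 CPM in WT libraries. Of 6 general epithelial markers 3 keratins, Krt8, Krt18 and Krt19, rose, and the sum was 11512 to 23482 CPM in KO and 6324 to 12599 CPM in WT libraries. Of 4 tuft cell markers, 2, Dclk1 and Pou2f3, fell, with sums of 16.5 to 50.6 CPM in KO and 25.0 to 47.4 CPM in WT libraries. Of 5 tested hepatocyte markers, 2, Afp and Apoh, fell, Alb, Serpina1a and Fgb stayed under 1 CPM, and the sums did not overlap, at 2.63 to 22.2 CPM in KO and 24.4 to 37.0 CPM in WT libraries. Sums of 5 goblet cell markers did not overlap either, at 3212 to 3964 CPM in KO and 4199 to 6458 CPM in WT libraries, although the 1 called, Spdef, rose. Gene by gene, the groups did not overlap in 1 hepatocyte marker and 0 goblet cell markers, against 10.6% of all genes tested. Their part in the levels of the fat absorption genes was not tested.

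Per kilobase of exon, the WT crypts held most Apoa1, with a median of 5033 CPM per kb, then Fabp2 at 4744 and Fabp1 at 3772. The WT ranges of these 3 overlap, and all lie above Apoa4, the next, at 309.7 CPM per kb. Apoa4, Mttp (289), Apoc2 (239.9) and Apoc3 (206) overlap in turn, and Dgat1 (98.8), Apob (19.6) and Cd36 (10.1) follow, the last pair with overlapping ranges. In KO crypts the medians ran Fabp2 at 3315, Apoa1 at 2473, Fabp1 at 1168, Apoc2 at 313, then Apoa4, Mttp at 171, Dgat1 at 63.6, Apoc3 at 47.5, Apob at 12.9 and Cd36 at 1.16 CPM per kb. The KO ranges of neighbours in this order overlap, except those of Apob and Cd36, so most of the order is not settled. In spheroids Apob had the highest medians, 22.7 CPM per kb in KO and 17.2 in WT libraries, followed by Fabp2 at 15.7 in KO and 15.9 in WT and Dgat1 at 13.0 in KO and 15.7 in WT, with ranges that overlap between neighbours. Next, Apoa1 had 10.7 in KO and 7.53 in WT. Levels of spheroids and crypts were scaled in separate tables and were not tested against each other.

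Of the 88 other genes of the pathway, 83 were tested in crypts, of which 13 fell and 9 rose, with a median log2 fold change of -0.16. Over all genes tested, 10.5% were called lower and 14% higher, so rises were no more frequent in these lists than over all genes. In triglyceride synthesis and storage 3 of 16 fell and none rose. Plin2, a coat protein of lipid droplets, had 88.9 ± 11.6 CPM in KO crypts and 165 ± 30.9 CPM in WT crypts (SD, n = 6 each), a log2 fold change of -0.90 ± 0.14 (SE; edgeR adjusted p = 0.00203). Lpin1, a phosphatidate phosphatase, had 8.78 ± 3.20 CPM in KO crypts and 25.1 ± 7.54 CPM in WT crypts (SD, n = 6 each; log2 fold change -1.52 ± 0.26, SE; edgeR adjusted p = 0.00255). Neither gene's groups overlap.

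Fatty acid handling had 3 of 12 genes lower and 1 higher, beside 10.5% and 14% of all genes tested. Hadha, a subunit of the mitochondrial trifunctional protein of fatty acid oxidation, had 247 ± 42.0 CPM in KO crypts and 411 ± 65.6 CPM in WT crypts (SD, n = 6 each; log2 fold change -0.73 ± 0.14, SE; edgeR adjusted p = 0.00429). For uptake and efflux 3 of 12 rose and none fell. Among regulators 5 of 24 fell and 4 rose. Hnf4g, a nuclear receptor of enterocytes, fell by 0.87 on the log2 scale (edgeR adjusted p = 0.00804), and Srebf2, the activator of cholesterol synthesis genes, and Pparg rose by 1.26 and 1.38 (edgeR adjusted p = 0.0133 and 0.0161). Hnf4a had a log2 fold change of -0.01 ± 0.13 (SE; edgeR adjusted p = 0.957), with 504 ± 55.8 CPM in KO and 508 ± 85.4 CPM in WT crypts (SD, n = 6 each). Chylomicron assembly and transport had 1 of 13 genes lower and none higher. Of 6 tested other apolipoproteins and partners, 1 rose and 1 fell, the riser being Apoc4, the neighbour of Apoc2, at 0.159 to 0.457 CPM in KO and 0.0371 to 0.148 CPM in WT libraries.

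**Figure D3:**
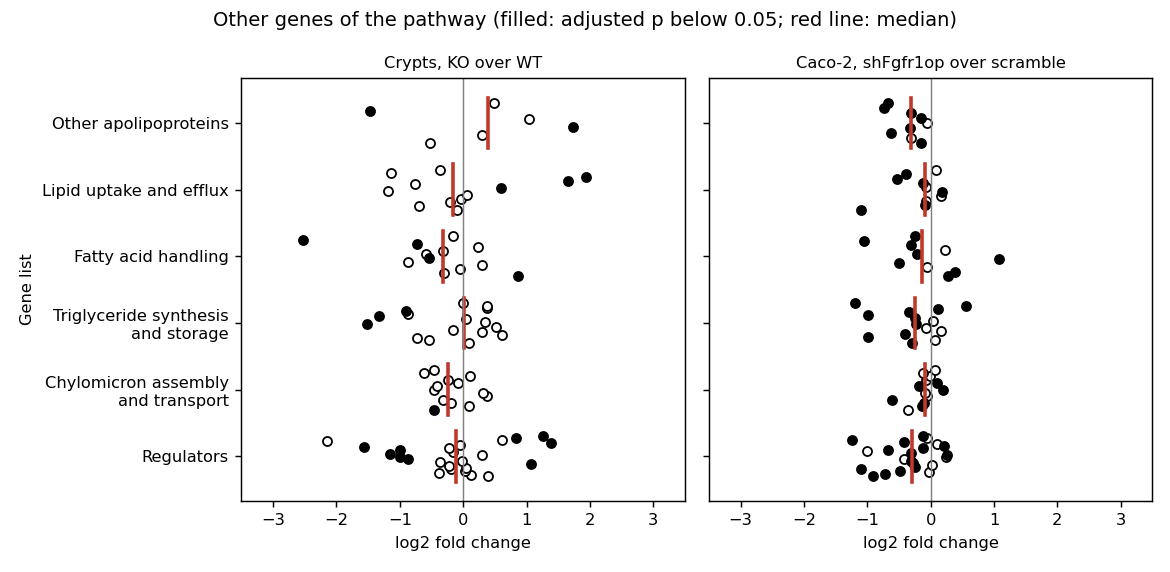
Log2 fold changes of the other genes of the pathway in 6 lists, in crypts (KO over WT) and Caco-2 cells (shFgfr1op over scramble), with 1 point per gene, filled where called, and a red line at each list's median. In Caco-2 cells 42 of 78 tested genes fell and 10 rose, and in crypts 13 of 83 fell and 9 rose. Over all genes tested, 16.2% were called lower and 15.7% higher in Caco-2 cells, and 10.5% and 14% in crypts.

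In spheroids none of the fat absorption genes passed the test, in a table in which 37 of 15915 genes tested, 0.232%, were called. Of the 9 genes tested, 0 were called by edgeR, 0 by DESeq2 (3.7% of all genes) and 0 by limma voom with sample quality weights (0.346%), and 0 had an unadjusted p in edgeR below 0.05 (14.6%). Their median log2 fold change was -0.16, beside -0.0018 over all genes tested. Apob had 233, 387, 247 and 567 CPM in KO libraries 1 to 4, against 259, 197, 273 and 219.7 CPM in WT libraries. KO libraries 2 and 4 lay above every WT library and the other two within their range, and the log2 fold change was 0.60 ± 0.29 (SE; 95% interval -0.06 to 1.26; edgeR adjusted p = 0.388) and 0.29 without KO library 4.

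WT library 1 held the highest value of all 8 libraries in Apoa1, Apoc2, Apoc3, Mttp, Fabp1, Fabp2 and Dgat1. Apoa1 had 5.12, 16.7, 29.7 and 9.64 CPM in KO libraries, against 48.2, 6.83, 11.7 and 6.90 CPM in WT libraries, with overlap. Its log2 fold change was -0.26 ± 0.79 (SE; edgeR adjusted p = 0.906), 0.85 without WT library 1 and -0.80 without KO library 3. Fabp1 had 0.807, 15.7, 4.46 and 3.35 CPM in KO libraries, against 21.1, 1.05, 2.31 and 0.953 CPM in WT libraries, where 3 of the 4 lay below KO libraries 2, 3 and 4. Its log2 fold change was -0.04 ± 1.23 (SE; edgeR adjusted p = 0.99). It was 2.07 without WT library 1 and -1.12 without KO library 2 (edgeR adjusted p = 0.406 and 0.798). Mttp had 12.1, 25.5, 36.2 and 21.3 CPM in KO libraries, against 81.0, 17.0, 33.2 and 18.5 CPM in WT libraries, a log2 fold change of -0.65 ± 0.56 (SE; edgeR adjusted p = 0.634) and 0.052 without WT library 1. Dgat1 ran from 35.4 to 47.3 CPM in KO libraries and from 36.3 to 90.2 CPM in WT libraries (log2 fold change -0.45 ± 0.29, SE; edgeR adjusted p = 0.513; -0.12 without WT library 1). Fabp2 had 9.92 to 19.2 CPM in KO libraries and 11.0 to 24.6 CPM in WT libraries (log2 fold change -0.16 ± 0.27, SE; edgeR adjusted p = 0.82; 0.093 without WT library 1). The 95% intervals of Apoa1, Apoa4, Apoc3 and Fabp1 run beyond 1 on the log2 scale in either direction. Those of Apoc2, Mttp and Dgat1 do so in the negative direction, to -1.53, -1.95 and -1.11, and that of Apob reaches 1.26. Changes of that size in those directions were thus not excluded here.

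Apoa4, Apoc2 and Apoc3 had few counts in spheroids. Apoa4 had 6 to 329 counts in KO libraries and 11 to 101 in WT libraries, Apoc2 had 45 to 111 and 43 to 161, and Apoc3 had 2 to 52 and 4 to 42. All of their groups overlap. Their log2 fold changes were 1.04 ± 1.06, -0.28 ± 0.56 and 0.36 ± 0.94 (SE; edgeR adjusted p = 0.69, 0.843 and 0.888), and without WT library 1 they were 1.94, 0.59 and 1.76. Without KO library 2 they were -0.23, -0.50 and -0.29, so none kept a direction. Cd36 had 2 counts in each KO library and 4 to 12 in WT libraries and was not tested. Of 82 tested other genes of the pathway none was called by edgeR. The 3 with the smallest p were Ppargc1a, a coactivator of oxidative metabolism, at 5.31 ± 1.04 CPM in KO and 9.92 ± 2.22 CPM in WT libraries (SD, n = 4 each; edgeR adjusted p = 0.0876), Plin2 at 111 ± 8.72 CPM in KO and 87.7 ± 8.36 CPM in WT libraries (SD, n = 4 each; edgeR adjusted p = 0.133), and Apol6 (edgeR adjusted p = 0.186). The 12 enterocyte markers had sums of 597 to 1012 CPM in KO and 641 to 1188 CPM in WT spheroids, and none was called.

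**Figure D4:**
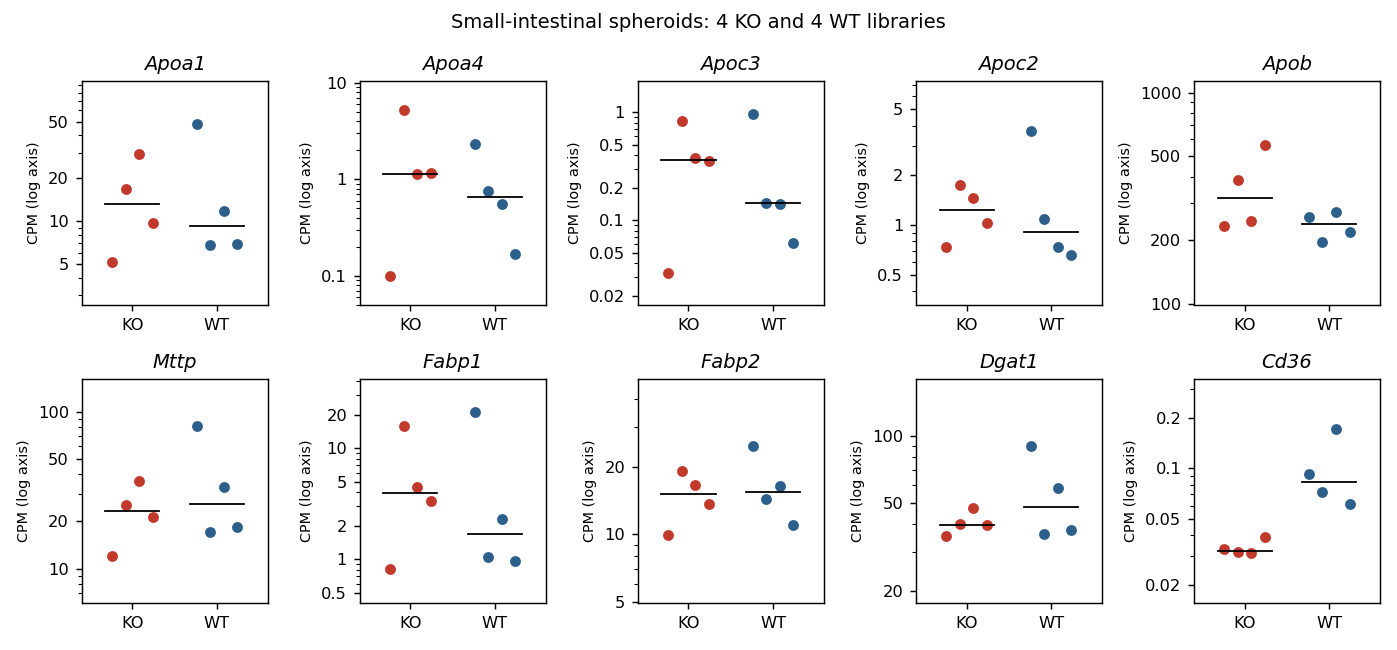
Levels of the 10 genes in small-intestinal spheroids, in CPM on a log axis, with 1 point per library and a line at each group's median. In the panels of Apoa1, Mttp, Fabp1 and Dgat1 a single WT library lies above all others (48.2, 81.0, 21.1 and 90.2 CPM).

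**Figure D5:**
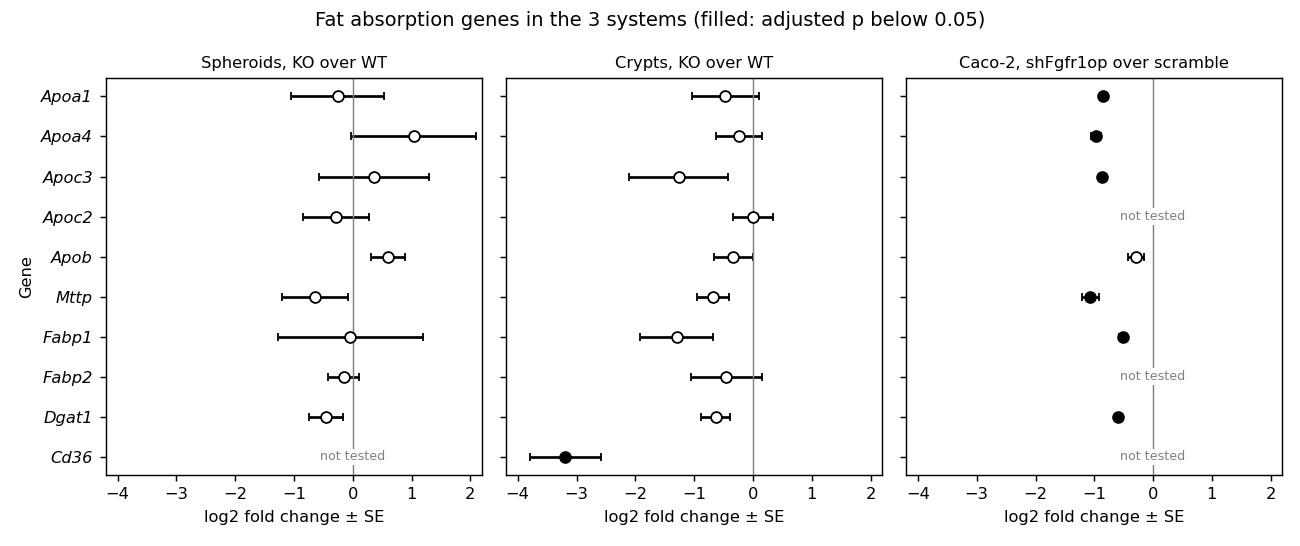
Log2 fold changes of the 10 genes with their SE in spheroids, crypts and Caco-2 cells, filled where the adjusted p of edgeR was below 0.05. In Caco-2 cells 6 of 7 tested genes are filled and lie between -1.07 and -0.52, in crypts only Cd36 is filled, and in spheroids no gene is.

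Values for single genes stood side by side in the 3 systems as follows. Mttp had log2 fold changes of -0.65 in spheroids, -0.68 in crypts and -1.07 in Caco-2 cells, and Dgat1 had -0.45, -0.63 and -0.60. In the same order Apoa1 had -0.26, -0.47 and -0.86, and Fabp1 had -0.04, -1.29 and -0.52. Apoa4 had 1.04, -0.24 and -0.97, and Apoc3 had 0.36, -1.26 and -0.87, so their spheroid values had the opposite sign. In edgeR each of these genes passed in Caco-2 cells alone. Without WT spheroid library 1 the spheroid values of Mttp and Fabp1 were 0.052 and 2.07. Apob had 0.60, -0.34 and -0.29 and passed in none. Differences between the systems were not tested, since they were counted in separate tables and the line is human.

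The 10 genes varied together to different degrees. In crypts, Pearson's r between a gene's log2 CPM and the mean of the other 9 standardised genes over 12 libraries was 0.98 for Fabp1, 0.96 for Apoc3 and 0.93 for Apoa1, and only 0.52 for Apoc2 and 0.55 for Cd36. The crypt libraries include KO libraries 4, 5 and 6, which lay below all the others in Fabp1, Apoc3 and Apoa1. How far those libraries set the crypt values of r, here and below, was not tested. In spheroids Apob had 0.25 over 8 libraries, while the other 8 tested genes had 0.70 to 0.96. Of all genes in the crypt table above the level set, those most like the mean profile of the 10 were Rbp2, the retinol binding protein of enterocytes (r = 0.99), Tm6sf2, which acts in lipoprotein lipidation (0.99), Cyp2d26 (0.99), Hsd17b6 (0.98) and Clec2h (0.98). In spheroids they included Ppp1r16a (0.98), Ndufa8 (0.97), Elovl1 (0.96) and Cyp2b10 (0.96), over 8 libraries that share the high WT library 1. In Caco-2 cells, where the groups lie apart and so set the value of r over 6 libraries, they were RAPGEFL1, PON2, NR5A2, PHGR1 and ABCA1, each at 1.00 after rounding. These are descriptions of shared variation between libraries of the same table.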

How the data were processed

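RNA-seq libraries of spheroids (4 KO, 4 WT), crypts (6 KO, 6 WT) and Caco-2 cells (3 shFgfr1op, 3 scramble) were analysed from 3 tables of whole-number read counts per gene that the authors deposited. The submitters' processing notes name STAR, DESeq2 and the build mm10. Annotation, strand setting and human build: not given in the sources used here. Rows repeating an identifier (276, 276 and 116) were removed. Each table was tested alone with edgeR 4.0.16 (filterByExpr, TMM, robust quasi-likelihood test, no covariates, Benjamini-Hochberg over all genes tested) in R 4.3.3, and alternatives were run with DESeq2 1.42.0 and limma 3.58.1. Standard errors are the log2 fold change divided by the root of F, and 95% intervals use the test's degrees of freedom. The script was tested on simulated counts. The 10 genes, the 6 pathway lists and the marker lists were chosen with earlier results of these data known. Named pathway genes are, per table, the 4 rises and 4 falls of smallest p among those called (the 3 of smallest p where fewer than 3 were called), and Hnf4a and APOE were named after their values were seen. Some genes that the rules name are not reported here. Likeness used genes whose mean log2 CPM was 2 or more. Same-numbered replicates correlated by at most 0.10 in spheroids and 0.04 in Caco-2. Different-numbered replicates were not set beside them, so these values cannot show whether the numbers pair libraries. The main fits treated libraries as unpaired. No replicates looked like 1 library deposited again: chi-square per degree of freedom between replicates was at least 3.98. Intervals cover the spread between libraries only.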

Additional observations from a re-analysis of the deposited data

How the results depend on the processing

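Under RLE size factors, no low-count filter, a 1 CPM filter, DESeq2, limma voom with sample weights and a replicate block, the count of genes called in spheroids was 36, 154, 30, 566, 55 and 71, and that of the 10 genes was 0 throughout. DESeq2 called Fgfr1op in spheroids (log2 fold change -0.42, adjusted p = 0.00622). Limma voom called 7179 genes in crypts and 8 of the 10, and DESeq2 called 3 (Cd36, Fabp1 and Dgat1). Caco-2 counts of the 10 stayed at 6 except under the replicate block, which called APOB as the 7th; its pairing rests on numbers only. No paired analysis was possible in crypts because the columns do not carry the labels' replicate numbers. Directions turned, in genes not called, for spheroid Apoa1, Apoc2 and Fabp1 under limma voom (0.19, 0.22 and 0.91) and the replicate block (0.18, 0.046 and 0.95), and for crypt Apoc2 under RLE (-0.028), no filter (-0.019), 1 CPM (-0.0097) and DESeq2 (-0.027); the cause was not tested. Leaving out 1 library gave 3 to 160 genes called in spheroids (3 without WT library 3, 160 without KO library 3), 2749 to 5005 in crypts and 5162 to 5697 in Caco-2, and 0, 1 to 3 and 6 to 7 of the 10. Crypt Fgfr1op ran from -0.74 to -0.52 and missed the threshold without WT library 2 or 6 (adjusted p = 0.0528 and 0.0543 in edgeR). In those fits spheroid log2 fold changes ran from -0.80 to 0.85 (Apoa1), -0.23 to 1.94 (Apoa4), 0.29 to 0.76 (Apob), -0.54 to 0.59 (Apoc2), -0.29 to 1.76 (Apoc3), -0.92 to 0.052 (Mttp), -1.12 to 2.07 (Fabp1) and -0.31 to 0.093 (Fabp2), and crypt Apoc2 from -0.14 to 0.23. The crypt ranges of Apoc3 and Fabp1 were -1.85 to -0.96 and -1.70 to -1.05. Genes with a few counts per library, and 3 to 6 libraries per group, limit what could be detected.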
